A study of Mus musculus with 12 samples.

Results

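Mouse embryonic stem cells labelled Tfcp2l1 knockout and grown in 2i medium were compared directly with wild-type embryonic stem cells grown in FBS medium. The comparison takes 8 of the 12 RNA-seq libraries of the study: the 4 labelled Tfcp2l1 knockout in 2i and the 4 labelled wild type in FBS, chosen by those labels alone. The study designed the knockout to be read against wild type in 2i, and wild type in 2i to be read against FBS; the direct comparison asks what still separates the knockout from serum-grown cells. Each of those comparisons shares a group of libraries with this one, so values for wild type in 2i stand side by side with these results and are no independent support for them.

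Both media contain leukaemia inhibitory factor (LIF). The 2i medium adds CHIR99021, an inhibitor of the kinase GSK3 that stabilises beta-catenin, and PD0325901, an inhibitor of the kinase MEK that blocks ERK signalling, in a base of DMEM/F12 and Neurobasal with N2 and B27 supplements. The FBS medium is high-glucose DMEM with foetal bovine serum, nonessential amino acids and glutamine, and has neither inhibitor. Genotype, inhibitors, serum and base medium therefore all differ between the groups and cannot be told apart. The labels do not say which part of Tfcp2l1 was removed, whether the knockout line is 1 clone, whether feeder cells were used, or whether the 4 repeats of a group are separate cultures. The p-values therefore set each difference against the spread among libraries within groups. How much of that spread is technical is not known.

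Tfcp2l1 is a transcription factor of the CP2 and grainyhead-like family that acts downstream of LIF and STAT3 and of GSK3 inhibition to maintain the naive state. Naive cells in 2i express the transcription factors of the early epiblast uniformly, have low DNA methylation and little transcription of lineage genes. Cells in serum and LIF are a mixed population in which ERK signalling is active and some cells begin to express epiblast or extraembryonic genes. In RNA from whole cultures, a change in the share of such cells and a change in RNA per cell cannot be told apart.

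Tfcp2l1 RNA itself remained detectable in the knockout. The gene lies at chr1:120524522-120581745 (mm9, 1-based, as are the coordinates of genes below) and was 76.1, 72, 82.9 and 84.7 FPKM in the knockout libraries and 25.8, 37.1, 30.7 and 31.5 FPKM in the FBS libraries, and the groups did not overlap (log2 difference 1.32, SE 0.10, adjusted p = 2.23e-07). FPKM of a whole transcript do not show which part of it was removed, so this level does not check the labels. It was 132 ± 13.8 FPKM (mean ± SD of 4 libraries, as for every such pair below) in wild type in 2i. An exact two-sided permutation test of the knockout against FBS gave p = 0.0286, the smallest possible among 70 splits of 4 against 4. FPKM are scaled to transcript length and library size, so levels are per length. A log2 difference is knockout minus FBS on the scale log2(FPKM + 1), with adjusted p from limma over all genes tested. It understates the change of genes near 0.

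FPKM summed to between 347772 and 358340 per library, and 11440 to 11763 genes reached 1 FPKM. Markers of fibroblasts, which are often used as feeder cells, moved with the groups. Their summed level ran from 437 to 743 FPKM in the knockout, 104 to 141 in FBS and 237 to 389.7 in wild type in 2i, none of the 20 was at 0 in all libraries, and 16 rose and 1 fell. Pou5f1, Nanog and the other embryonic stem cell markers were high throughout: their mean log2 level was 7.56 ± 0.044 in the knockout and 7.57 ± 0.081 in FBS. Markers of epiblast, trophoblast, visceral and parietal endoderm and neural cells had lower mean log2 levels in the knockout than in FBS, with no overlap in any of these 5 lists (exact two-sided permutation p = 0.0286 each). The summed level of the parietal endoderm markers went the other way, 454 to 610.3 FPKM in the knockout and 302 to 354 in FBS, with Sparc the most abundant. Only 3 of the 12 visceral endoderm markers reached the test, and 2 of them fell. Members of the other lists did not all move alike. Of 7 tested epiblast markers 2 rose and 5 fell, and of 7 trophoblast markers 1 rose and 4 fell. Of 12 parietal endoderm markers 6 rose and 5 fell, and of 4 neural markers 1 fell and 3 were not called.

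Replicate 4 of the FBS group stood apart over the start of chromosome X, a stretch picked out after its values were seen. All 35 tested genes from Nudt11 to Ftsj1 (chrX:5624625-7829532, mm9) were higher in FBS replicate 4 than in the mean of FBS replicates 1 to 3, by a median of 2.03 times (lowest 1.65, highest 2.84). The same 35 genes were higher in replicate 4 of wild type in 2i, also by a median of 2.03 times (1.63 to 3.39). In knockout replicate 4 the median ratio was 1.01 (0.761 to 1.38). Over the other 395 tested genes of chromosome X the median ratios were 0.972, 1.03 and 0.986 in FBS, wild type in 2i and the knockout. Within the stretch, 3 genes rose and 14 fell in the knockout, with a median log2 difference of -0.45; without FBS replicate 4 these were 4, 13 and -0.25. Chromosome 6 also varied between libraries: the median deviation of its 572 tested genes from each gene's mean over the 12 libraries, on the log2 scale, ran within FBS from -0.165 in replicate 3 to 0.061 in replicate 1, and was 0.02 in knockout replicate 2 and -0.084 in the others of that group. Subtracting each library's deviation gave 8229 called genes. Of the genes described below that lie there, Nanog, Asns, Peg10, Ldhb and Slc2a3 were still called, with log2 differences of 0.89, 2.00, -2.79, 1.02 and 0.53. Tuba3a, Gadd45a and Cycs lie there too. Of the 219 genes named by a rule given below, none lost its call and 1 gained one. Other described genes outside that rule were not checked.

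**Figure D1:**
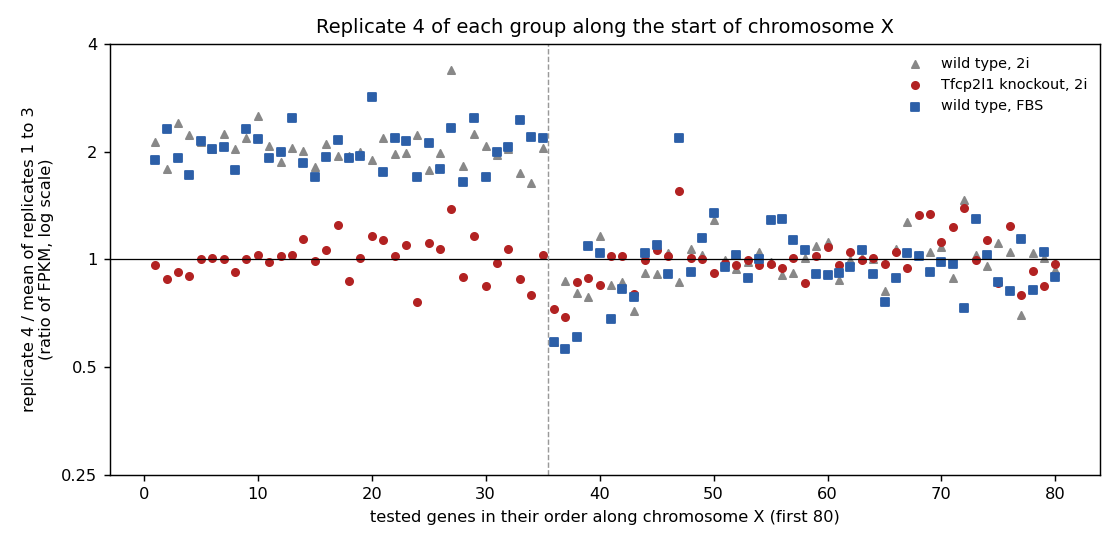
Ratio of replicate 4 to the mean of replicates 1 to 3 of its own group (log scale) for the first 80 tested genes in their order along chromosome X. The first 35 genes, left of the dashed line, lie near 2 in both wild-type groups and near 1 in the knockout.

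The groups differed in most of the transcriptome. Of 12219 genes that reached 1 FPKM in 4 or more of the 12 libraries, 8150 (66.7%) differed at an adjusted p under 0.05. In the knockout 4234 were higher (34.7%) and 3916 lower (32%). Most differences were small: the median size was 0.43 on the log2 scale among called genes, and 1119 genes (9.16%) also differed by at least 1, 640 higher and 479 lower. The 4 values of one group lay wholly outside those of the other for 7693 genes (63%). The share of calls is thus high for any list, and a list is described below by its counts, direction and median beside the median of 0.014 over all tested genes.

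The 15 named rises were led by genes of the 2-cell embryo and of fibroblasts, described below, with Ct55, Aurkc, Plagl1 and Sp5. Chit1, a chitinase, averaged 14.6 ± 3.09 against 0.23 ± 0.0821 FPKM and Elobl 40.1 ± 5.85 against 2.54 ± 0.992 FPKM. The 15 named falls (unnamed gene models are in neither set) held Car4, a membrane-bound carbonic anhydrase at chr11:84771256-84779556, which was 1.16, 1.9, 0.776 and 0.864 FPKM in the knockout libraries and 41.3, 25.6, 33.8 and 30.7 FPKM in the FBS libraries (log2 difference -3.97, SE 0.15, adjusted p = 1.17e-09). The groups did not approach each other, and wild type in 2i held 0.0258 ± 0.0333 FPKM. AU015836 averaged 6.29 ± 0.255 against 64.4 ± 28.8 FPKM, and Pcsk1n, an inhibitor of prohormone convertase in the X stretch, 0.34 ± 0.0583 against 10.4 ± 3.55 FPKM (log2 difference -3.03, and -2.85 without FBS replicate 4).

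Side by side, 8872 genes (72.6%) differed between wild type in 2i and FBS, with a median size over all tested genes of 0.35, against 0.29 for the knockout and FBS and 0.17 for the knockout and wild type in 2i. On the first principal component, with 68.9% of the variance, the knockout lay at -21.33 to -17.14, wild type in 2i at -33.58 to -28.05 and FBS at 45.52 to 53.54. On the second, with 17.4%, FBS was at -6.08 to -1.5, the knockout at 21.58 to 24.68 and wild type in 2i at -25.54 to -12.96. The knockout was thus on the 2i side of the first component, shifted towards FBS, and apart from both wild-type groups on the second.

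**Figure D2:**
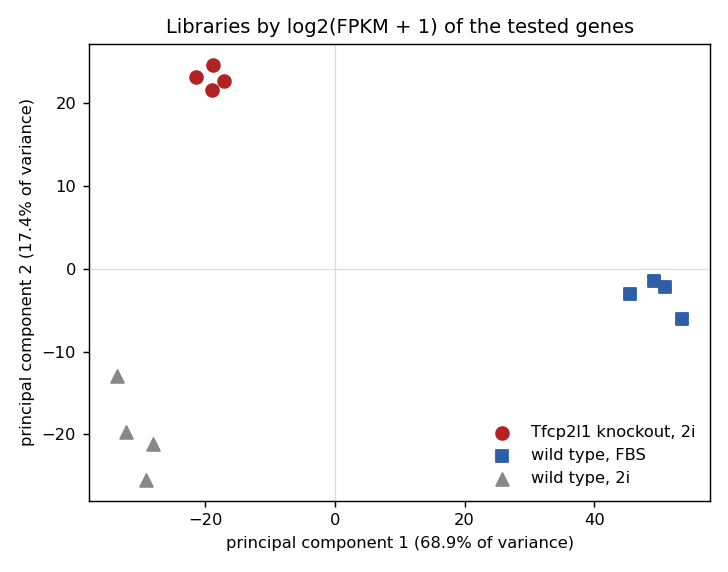
Each point is a library on the first and second principal components of log2(FPKM + 1) of the tested genes. The 4 knockout libraries lie between -21.33 and -17.14 on the first and between 21.58 and 24.68 on the second, away from both wild-type groups.

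Adding the mean log2 level of the fibroblast markers to the model left 1634 called genes, 675 higher and 959 lower, of which 1562 were also called without it. That level did not overlap between the groups (3.50 to 4.16 in the knockout, 2.15 to 2.45 in FBS), and the median standard error of the called genes rose from 0.076 to 0.24. Counts with this level in the model are given beside the lists. A call lost there does not show a smaller effect. Of 219 genes named by a rule, 122 kept their side of the threshold and their direction, 86 lost their call and 10 changed sign. Of the last only Thbs1 was called with its new sign. Of those 219 genes, Cdkn1c, Crabp2, Cycs, Dppa5a, Ebp, Chac1, Trp53 and Esx1, described below, also lost their calls when single libraries were left out. Calls gained in that way are given beside the gene. Described genes outside the rule were not screened for such losses or gains.

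**Figure D3:**
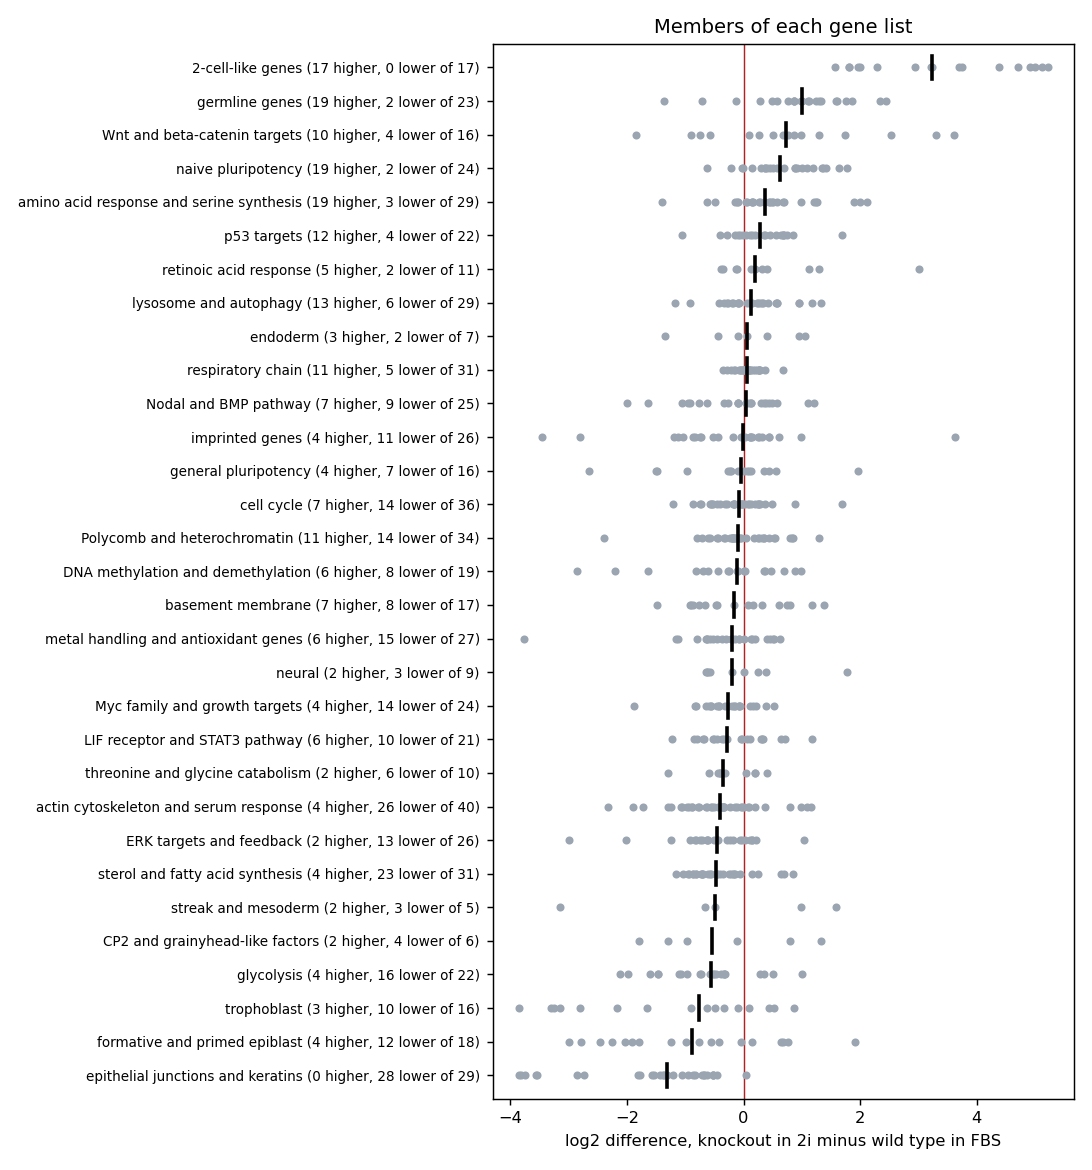
Log2 difference, knockout in 2i minus wild type in FBS, of every tested member (points) and the median (bar) of the 31 gene lists, with the number called higher and lower. All 17 members of the 2-cell-like list lie above 0, and 28 of 29 keratin and junction genes lie below.

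The list with the lowest median was that of epithelial keratins and junctions. Of its 29 members, 28 fell in the knockout, none rose, and the median was -1.32; with the fibroblast level in the model 18 fell and none rose. Keratins fell furthest. Krt8 (chr15:101827142-101834773), which pairs with Krt18 in simple epithelia, was 3.23, 5.57, 2.63 and 4.28 FPKM in the knockout libraries and 78.5, 59, 65.5 and 53.3 FPKM in the FBS libraries (log2 difference -3.75, SE 0.26, adjusted p = 1.02e-07). Krt18 was 9.39, 14, 7.76 and 9.04 FPKM in the knockout libraries and 148, 118, 145 and 97.3 FPKM in the FBS libraries. Neither gene overlapped between the groups, and wild type in 2i held 4.13 ± 2.05 and 7.53 ± 3 FPKM. Krt19 averaged 0.736 ± 0.193 against 23.5 ± 4 FPKM. Krt7, another simple-epithelium keratin, was 0.685 ± 0.219 FPKM in the knockout and 23.5 ± 4.78 in FBS (log2 difference -3.85, SE 0.19, adjusted p = 5.72e-09), and lower in the knockout than in wild type in 2i at 3.1 ± 1.16.

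Tight junction genes showed the same direction. Cldn4 (chr5:135420993-135422804), a claudin, was 24.7, 31.9, 23.4 and 33.3 FPKM in the knockout libraries and 196, 208, 194 and 174 FPKM in the FBS libraries (log2 difference -2.74, SE 0.22, adjusted p = 3.53e-07). Every knockout value was below every FBS value, and wild type in 2i averaged 86.6 ± 31.6 FPKM. Cldn7 averaged 3.41 ± 0.684 against 31.1 ± 5.53 FPKM, and Cldn3 4.53 ± 0.0676 against 13.2 ± 1.13 FPKM. Occludin (Ocln) was the member that did not pass, with a log2 difference of 0.042 and overlapping groups. Genes of the adherens junction fell by less: E-cadherin (Cdh1) was 71.8 ± 4.71 against 118 ± 6.83 FPKM and plakoglobin (Jup) 14.9 ± 0.982 against 29.7 ± 2.47 FPKM, and wild type in 2i held 121 and 30.9 FPKM. For these the knockout was below both wild-type groups.

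Esrp1 (chr4:11259185-11313930), a splicing factor of epithelial cells, was 1.9, 1.45, 0.933 and 0.992 FPKM in the knockout libraries and 25.5, 27.3, 25.5 and 24.1 FPKM in the FBS libraries (log2 difference -3.54, SE 0.12, adjusted p = 3.91e-10). No library of the groups overlapped, and wild type in 2i was lower still at 0.197 ± 0.102 FPKM. The adhesion protein Epcam averaged 49.7 ± 4.01 against 135 ± 10.3 FPKM and connexin 43 (Gja1) 40.8 ± 2.89 against 142 ± 6.75 FPKM. Rab25, a trafficking GTPase of epithelial cells, was 0.563 ± 0.0465 against 13.2 ± 2.84 FPKM. The membrane protease St14 (matriptase) and its inhibitor Spint1 averaged 11.2 and 13.1 FPKM in the knockout, 27.4 and 20.8 in FBS, and 39.2 and 60.1 in wild type in 2i, so that the knockout was the lowest of the 3 groups for both. Of the factors related to Tfcp2l1, the grainyhead-like factors Grhl1, Grhl2 and Grhl3, known regulators of epithelial genes, fell (log2 differences -0.97, -1.80 and -1.30), Ubp1 fell by a log2 difference of 0.11, and Tfcp2 rose (0.79).

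**Figure D4:**
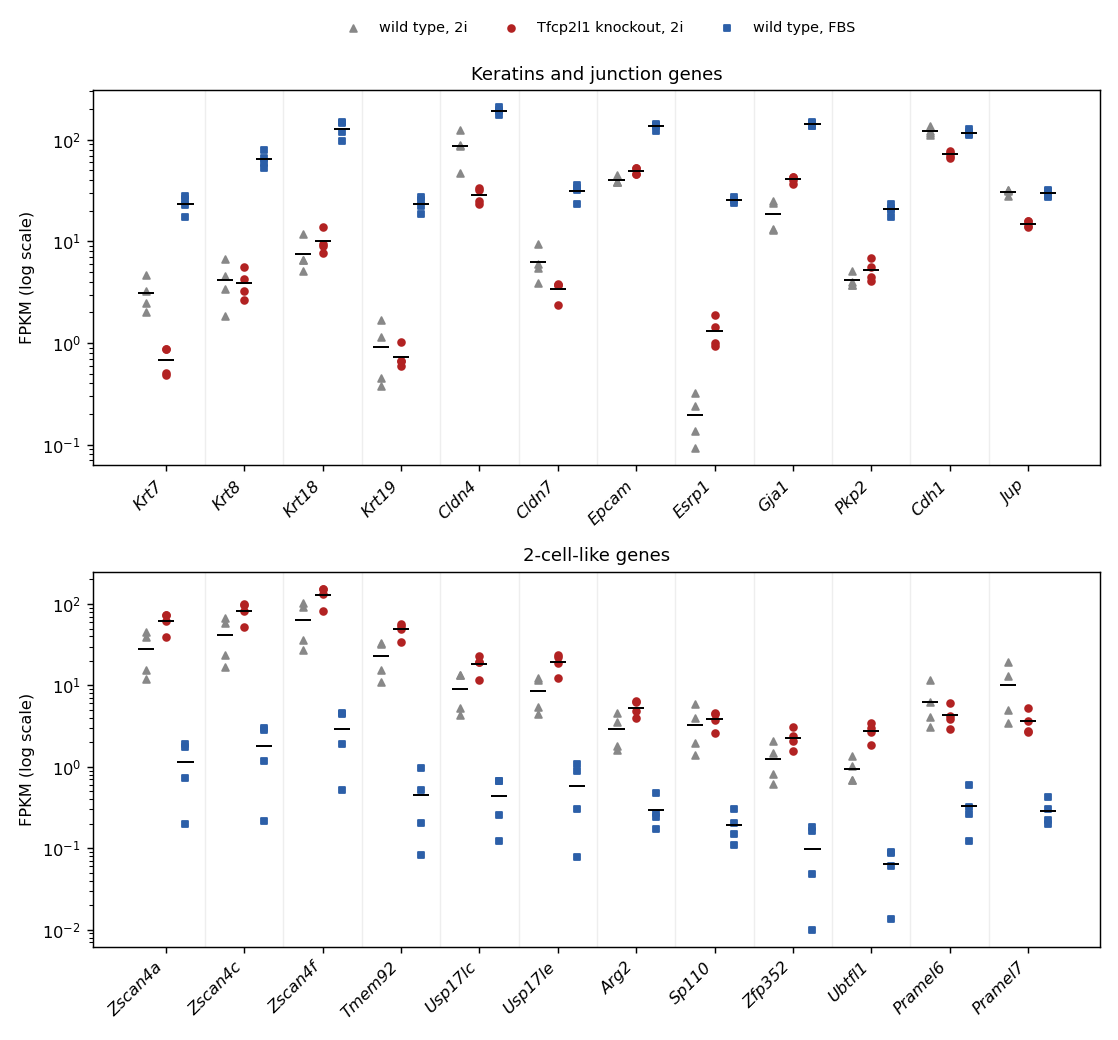
FPKM of each library (points, log scale, a value of 0 drawn at 0.01) and group means (bars) for keratin and junction genes and for 2-cell-like genes. FBS libraries are the highest group for the keratins, and the lowest for every 2-cell-like gene shown.

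Trophoblast genes were mostly lower in the knockout. Of 16 tested, 10 fell and 3 rose, with a median of -0.77; with the fibroblast level in the model 1 rose and 6 fell. Hand1, a transcription factor of trophoblast and mesoderm, was 0.463, 0.615, 0.6 and 0.322 FPKM in the knockout libraries and 13.6, 14.3, 11 and 10.3 FPKM in the FBS libraries (log2 difference -3.14, SE 0.10, adjusted p = 3.91e-10). Fgfr2, the FGF receptor of trophoblast stem cells, averaged 1.75 ± 0.19 against 11.5 ± 2.01 FPKM, and the X-linked homeobox genes Rhox6 and Rhox9 averaged 4.43 and 4.02 FPKM in the knockout and 52.9 and 46.7 in FBS. These groups did not overlap. Cdx2, a defining trophoblast factor and also a Wnt target, went the other way at 3.54 ± 0.428 against 1.5 ± 0.328 FPKM (log2 difference 0.87, SE 0.099, adjusted p = 6.59e-06). Tead4 and Esx1 were the other members that rose; Esx1 (log2 difference 0.43, SE 0.14, adjusted p = 0.0173) was not called with the fibroblast level in the model. Among the members that fell, Krt7 stands in the keratin list too, and Peg10 in the imprinted list.

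The list with the highest median was that of genes active in the 2-cell embryo, which a few cells of a stem cell culture express at a time. All 17 tested members rose, with a median of 3.23, and with the fibroblast level in the model 15 rose. Zscan4f (chr7:11983264-11987667), of the Zscan4 cluster of zinc finger genes, was 152, 131, 154 and 82.9 FPKM in the knockout libraries and 1.92, 0.513, 4.49 and 4.58 FPKM in the FBS libraries (log2 difference 5.22, SE 0.47, adjusted p = 8.71e-07). Tmem92 (chr11:94638531-94693316) was 54.1, 49.9, 56.8 and 34.6 FPKM in the knockout libraries and 0.206, 0.0836, 0.978 and 0.514 FPKM in the FBS libraries (log2 difference 5.12, SE 0.31, adjusted p = 3.30e-08). For both genes the lowest knockout library was far above the highest FBS library. Usp17lc, of a family of deubiquitinases, averaged 18.3 ± 4.84 against 0.434 ± 0.287 FPKM, and the transcription factor Zfp352 2.28 ± 0.631 against 0.0979 ± 0.0877 FPKM. Pramel6 and Pramel7 rose less, by 1.97 and 1.81.

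Within the knockout, replicate 4 was the lowest library for every member of the 2-cell-like list but Pramel6 and Pramel7. Wild type in 2i also expressed these genes, at 64.3 ± 38.2 FPKM of Zscan4f and 22.8 ± 11.2 of Tmem92. Tcstv1 and Tcstv3 were listed at 0 in every library and were not tested. The Zscan4 and Usp17l genes are near-identical copies that share reads, so the value of any single copy is uncertain. Other genes among the 15 named rises were Pramel20 (56 ± 13.6 against 0.747 ± 0.478 FPKM), BB287469 (42.2 ± 8.5 against 0.778 ± 0.614 FPKM) and AA792892 (18.4 ± 4.63 against 0.372 ± 0.274 FPKM).

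Germline genes rose with few exceptions. Of 23 tested, 19 rose and 2 fell, with a median of 1.01; with the fibroblast level in the model 8 rose and 1 fell. Dazl (chr17:50418718-50432945), an RNA-binding protein of germ cells, was 15.6, 12.6, 18.2 and 14.6 FPKM in the knockout libraries and 2.01, 2.15, 2.69 and 1.96 FPKM in the FBS libraries (log2 difference 2.34, SE 0.24, adjusted p = 2.45e-06). Sycp1 and Hormad1, proteins of meiotic chromosomes, averaged 4.72 and 6.91 FPKM in the knockout against 0.868 and 1.2. Tuba3a, a testis tubulin, averaged 32.6 ± 2.91 against 5.18 ± 0.859 FPKM, and Aurkc, the Aurora kinase of meiotic cells, 23.8 ± 3.16 against 0.96 ± 0.406 FPKM. None of these groups overlapped. Dazl and Tuba3a were higher again in wild type in 2i, at 40.5 and 82.3 FPKM. Prdm1, which specifies primordial germ cells, fell from 5.28 ± 0.578 FPKM in FBS to 1.45 ± 0.167, and Dnd1 fell with it (-0.72). Ct55 was 16.7, 17.2, 16.7 and 11.8 FPKM in the knockout libraries and 0.118, 0.164, 0.0908 and 0.219 FPKM in the FBS libraries, and 0.804 ± 0.564 in wild type in 2i.

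Naive pluripotency genes were higher in the knockout than in serum. Of 24 tested, 19 rose and 2 (Dppa4 and Manba) fell, with a median of 0.63; with the fibroblast level in the model 9 rose and none fell. Nanog (chr6:122657586-122663796) was 385, 389, 409 and 376 FPKM in the knockout libraries and 197, 213, 217 and 220.2 FPKM in the FBS libraries (log2 difference 0.88, SE 0.046, adjusted p = 8.73e-09). Klf4 was 213, 219, 190.0 and 220.0 FPKM in the knockout libraries and 85.1, 103, 101 and 79.2 FPKM in the FBS libraries (log2 difference 1.19, SE 0.14, adjusted p = 8.92e-06). Tbx3 averaged 61.8 ± 8.6 against 17.5 ± 3.59 FPKM, Prdm14 10.7 ± 1.2 against 3.66 ± 0.911 FPKM and Nr5a2 20.7 ± 1.43 against 7.17 ± 1.08 FPKM. In each of these the knockout and FBS groups did not overlap. Levels in wild type in 2i were 578 (Nanog), 264 (Klf4), 94 (Tbx3), 16.6 (Prdm14) and 20.5 (Nr5a2) FPKM.

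Fbxo15 and Nr0b1, both expressed in undifferentiated cells, averaged 279 ± 28.8 against 90.2 ± 14.7 FPKM and 123 ± 8.56 against 48 ± 10.9 FPKM. Esrrb, a nuclear receptor of the naive network, rose from 117 ± 2.53 to 166 ± 9.01 FPKM. Sox15 and Fgf4 did not pass, with log2 differences of -0.003 and 0.15; without FBS replicate 3, Fgf4 was called (0.25, adjusted p = 0.0128). Dppa3 was 58.5 ± 5.27 FPKM in the knockout and 47.7 ± 7.14 in FBS (log2 difference 0.30, SE 0.11, adjusted p = 0.0356), with overlapping groups, while wild type in 2i held 12.3 ± 1.69. Dppa5a was called only narrowly (log2 difference 0.37, SE 0.15, adjusted p = 0.0485).

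General pluripotency genes split. Of 16 tested, 4 rose and 7 fell, with a median of -0.047; with the fibroblast level in the model 1 rose and 3 fell. Pou5f1 (Oct4) was 805 ± 24.2 against 760.3 ± 73.4 FPKM and did not pass (adjusted p = 0.272; 0.0342 without FBS replicate 4, with a log2 difference of 0.15, and 0.000497 with quantile normalization, with 0.31). Sox2 fell (log2 difference -0.23, SE 0.081, adjusted p = 0.0219). Utf1 (chr7:147129755-147131011), a chromatin protein, was 59.2, 60.9, 55.7 and 65.1 FPKM in the knockout libraries and 396, 358, 388 and 389 FPKM in the FBS libraries (log2 difference -2.65, SE 0.057, adjusted p = 2.35e-11), and 60.7 ± 3.9 FPKM in wild type in 2i. Lin28a, an RNA-binding protein that blocks let-7 maturation, was 42.5, 39.4, 34.7 and 39.6 FPKM in the knockout libraries and 127, 89.5, 114 and 123 FPKM in the FBS libraries (log2 difference -1.50, SE 0.19, adjusted p = 2.02e-05). It lay between wild type in 2i at 12.8 ± 4.18 FPKM and FBS. Sall1 fell (-1.48) and Foxd3 rose from 7.39 ± 2.33 to 31.2 ± 4.14 FPKM.

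Genes of the formative and primed epiblast were lower in the knockout. Of 18 tested, 12 fell and 4 rose, with a median of -0.88; with the fibroblast level in the model 7 fell and none rose. Otx2 (chr14:49277859-49282547), a transcription factor of the formative epiblast, was 1.53, 1.32, 1.87 and 2.28 FPKM in the knockout libraries and 13.1, 16.6, 21.4 and 21.1 FPKM in the FBS libraries (log2 difference -2.78, SE 0.20, adjusted p = 1.24e-07). Pou3f1 (Oct6) averaged 2.19 ± 0.152 against 12.2 ± 1.52 FPKM and the growth factor Fgf5 0.211 ± 0.0613 against 3.31 ± 1.04 FPKM. The groups did not overlap in any of these. Wild type in 2i held 1.7 FPKM of Otx2, 2.48 of Pou3f1 and 0.0896 of Fgf5. Cldn6, an early embryonic claudin, fell from 84.1 ± 8.87 FPKM in FBS to 16.8 ± 1.14 in the knockout, above 5.69 ± 0.495 in wild type in 2i.

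The 4 members that rose were Zic2, Zic5, Sox3 and Lef1. Zic2, a zinc finger factor, was 52.8, 46.5, 49.3 and 51.2 FPKM in the knockout libraries and 13.3, 8.4, 12.4 and 17.6 FPKM in the FBS libraries (log2 difference 1.91, SE 0.17, adjusted p = 8.96e-07), and 43.8 ± 8.78 in wild type in 2i. The kinase gene Pim2 lies in the X stretch described above: it was 6.65, 6.04, 6.48 and 7.39 FPKM in the knockout libraries and 41.2, 25.3, 29.3 and 90.6 FPKM in the FBS libraries, and its log2 difference of -2.46 became -2.08 without FBS replicate 4. Eras, a Ras-like gene of embryonic stem cells in the same stretch, was 3.09, 3.35, 3.17 and 3.57 FPKM in the knockout libraries and 27.3, 32.4, 28 and 62.1 FPKM in the FBS libraries (log2 difference -3.08, SE 0.26, adjusted p = 4.24e-07; -2.81 without FBS replicate 4). The highest FBS value of both genes was that of replicate 4.

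**Figure D5:**
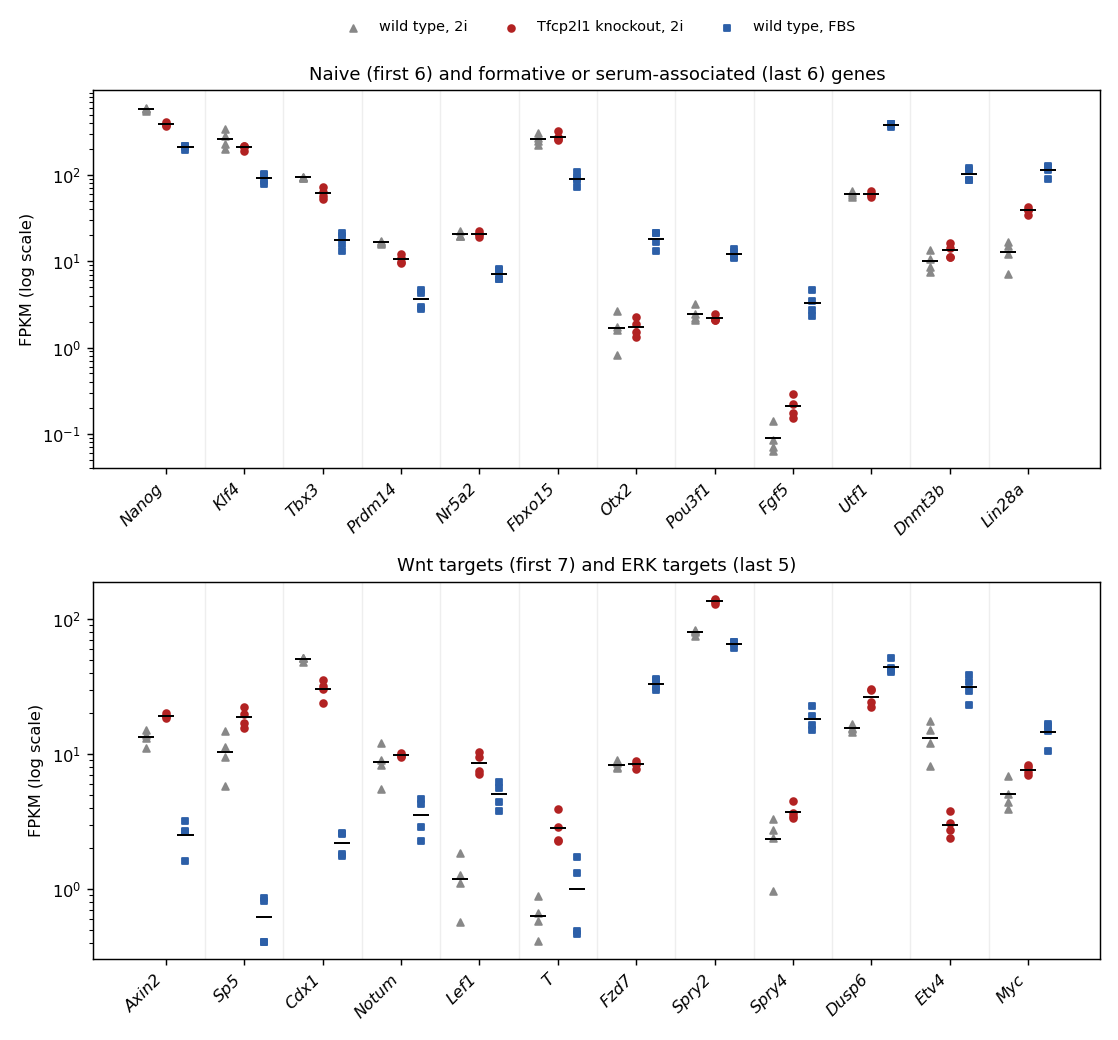
FPKM of each library (points, log scale) and group means (bars) for naive, formative or serum-associated, Wnt target and ERK target genes. Otx2, Pou3f1, Utf1 and Dnmt3b are low in both 2i groups, whereas Lef1 and T are higher in the knockout than in either wild-type group.

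Among DNA methylation genes, 6 of 19 rose and 8 fell, with a median of -0.11; with the fibroblast level in the model 2 rose and 4 fell. Dnmt3b (chr2:153475185-153513466), a de novo methyltransferase, was 16.4, 14.4, 11.3 and 11.3 FPKM in the knockout libraries and 121, 87.3, 87.8 and 115 FPKM in the FBS libraries (log2 difference -2.86, SE 0.17, adjusted p = 2.58e-08). Its cofactor Dnmt3l was 65.7, 73.8, 53.2 and 65 FPKM in the knockout libraries and 329, 280.3, 329 and 264 FPKM in the FBS libraries (log2 difference -2.21, SE 0.19, adjusted p = 7.02e-07). Dnmt3a averaged 12 ± 1.42 against 22.7 ± 6.01 FPKM. For Dnmt3l the knockout lay between wild type in 2i (33.1 ± 11.5 FPKM) and FBS, and Dnmt3a in wild type in 2i was 6.14 ± 1.75. The maintenance enzyme Dnmt1 and its partner Uhrf1 did not pass (log2 differences 0.002 and -0.089). Of the Tet dioxygenases, which oxidise methylcytosine, Tet2 rose (log2 difference 0.89, SE 0.059, adjusted p = 6.64e-08) and Tet1 fell (log2 difference -0.61, SE 0.061, adjusted p = 2.28e-06). Gadd45a fell (-1.64) and Gadd45b rose (0.99).

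Of 26 imprinted genes tested, 4 rose and 11 fell; the median was -0.006 and the mean -0.25; with the fibroblast level in the model 1 rose and 4 fell. Plagl1, a zinc finger gene, rose the most and was 50.2, 52, 47.5 and 47.5 FPKM in the knockout libraries and 3.02, 3.36, 2.32 and 3.69 FPKM in the FBS libraries (log2 difference 3.63, SE 0.10, adjusted p = 9.74e-11). Nnat, which encodes a small membrane protein, was 1.33, 1.82, 1.12 and 1.46 FPKM in the knockout libraries and 24.1, 21.9, 27.9 and 27.9 FPKM in the FBS libraries (log2 difference -3.45, SE 0.098, adjusted p = 1.14e-10). Each of these genes separated the groups fully. Peg10, a retrotransposon-derived gene, was 32, 93.8, 49.8 and 47.2 FPKM in the knockout libraries and 376, 424, 300.3 and 379 FPKM in the FBS libraries, with knockout replicate 2 the highest of its group, and 15 ± 6.86 in wild type in 2i. Snrpn fell from 135 ± 7.32 to 65.1 ± 1.88 FPKM. Phlda2, which limits placental growth, was 9.9, 33.2, 30.6 and 32.7 FPKM in the knockout libraries and 96.4, 64.3, 39 and 41 FPKM in the FBS libraries, the groups nearly meeting. Cdkn1c, a cell cycle inhibitor, fell with overlapping groups (log2 difference -0.87, SE 0.35, adjusted p = 0.0406), and neither was called with the fibroblast level in the model. The Dlk1 domain genes Meg3, Rian and Mirg did not pass, and varied within the knockout: Meg3 was 26.5, 12, 5.65 and 36.8 FPKM.

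Targets of Wnt and beta-catenin were mostly higher in the knockout. Of 16 tested, 10 rose and 4 fell, with a median of 0.72. With the fibroblast level in the model 5 rose and 2 fell. The list median was -0.072 for wild type in 2i minus FBS and 0.31 for the knockout minus wild type in 2i. Both 2i groups were grown with the GSK3 inhibitor, and its part was not tested. Axin2 (chr11:108781663-108812095), a feedback inhibitor, was 20.2, 18.4, 19 and 19 FPKM in the knockout libraries and 2.7, 1.62, 3.17 and 2.63 FPKM in the FBS libraries (log2 difference 2.53, SE 0.12, adjusted p = 5.88e-09). Sp5, a transcription factor, was 22.4, 19.8, 15.5 and 17 FPKM in the knockout libraries and 0.818, 0.403, 0.404 and 0.858 FPKM in the FBS libraries (log2 difference 3.60, SE 0.21, adjusted p = 2.32e-08). Cdx1, a homeobox gene, was 30.3, 35.5, 32.1 and 23.9 FPKM in the knockout libraries and 2.61, 1.8, 1.76 and 2.56 FPKM in the FBS libraries (log2 difference 3.30, SE 0.12, adjusted p = 5.30e-10). All knockout values of these genes exceeded all FBS values. Wild type in 2i held 13.3 (Axin2), 10.3 (Sp5) and 50.5 (Cdx1) FPKM. The secreted inhibitor Notum averaged 9.82 ± 0.293 against 3.52 ± 1.13 FPKM, and the receptor-family gene Tnfrsf19 9.27 ± 0.75 against 2.1 ± 0.494 FPKM.

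Lef1, a partner of beta-catenin, was 10.3, 9.53, 7.52 and 7.12 FPKM in the knockout libraries and 5.57, 6.24, 4.44 and 3.81 FPKM in the FBS libraries (log2 difference 0.68, SE 0.18, adjusted p = 0.00437), and 1.19 ± 0.524 FPKM in wild type in 2i. T (brachyury) averaged 2.84 ± 0.775 against 0.995 ± 0.62 FPKM, and 0.634 ± 0.199 in wild type in 2i. Both were higher in the knockout than in either wild-type group. Wnt8a did not pass against FBS (2.01 ± 0.466 against 1.51 ± 0.348 FPKM), and it was 0.02 ± 0.0137 FPKM in wild type in 2i. The Wnt receptor Fzd7 fell from 33 ± 2.98 to 8.38 ± 0.497 FPKM, and Ascl2, Ccnd1 and Nkd2 fell too. Wnt7b, a ligand outside the list, fell from 22 ± 5.89 to 1.47 ± 0.335 FPKM.

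Promoter sequence was available from RefSeq (GRCm38.p6) for 10 of the 16 tested Wnt targets, as the 250 bases before each start of a gene. A gene with several starts counted if any of them held a match, and that start need not be its first. The core TCAAAG of sites bound by TCF and LEF factors, searched on both strands, lay in 4 of the 10 (40%), and in 13.8% of all 32851 promoters and 12.5% of tested genes with one. The 4 were Sp5, Lef1, T and Tnfrsf19, which all rose. Members were chosen as Wnt targets, so the share with a core may follow from that choice. The promoters of Sp5 (chr2:70474673-70474922, plus strand), with the largest rise, and Lef1 (chr3:131156044-131156293, plus strand) are shown because each holds 2 cores, in capitals; a core on the minus strand reads CTTTGA.
Sp5: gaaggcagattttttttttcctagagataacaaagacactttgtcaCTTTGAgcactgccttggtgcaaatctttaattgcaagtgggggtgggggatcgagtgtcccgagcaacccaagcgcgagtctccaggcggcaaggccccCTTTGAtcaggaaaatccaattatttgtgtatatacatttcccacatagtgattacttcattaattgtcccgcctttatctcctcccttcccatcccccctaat
Lef1: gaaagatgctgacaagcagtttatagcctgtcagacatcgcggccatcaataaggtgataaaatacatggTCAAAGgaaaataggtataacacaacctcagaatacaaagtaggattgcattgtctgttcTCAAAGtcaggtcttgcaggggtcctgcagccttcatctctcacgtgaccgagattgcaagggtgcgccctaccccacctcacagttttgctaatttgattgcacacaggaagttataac
A match describes letters in this window only, and whether the Lef1 window precedes its first start was not checked.

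Targets and feedback genes of ERK were more often lower than higher in the knockout: 13 fell and 2 rose of the 26 tested, with a median of -0.46; with the fibroblast level in the model 4 fell and 1 rose. Etv4 (chr11:101631056-101646624), an ETS factor, was 2.38, 3.77, 3.07 and 2.73 FPKM in the knockout libraries and 38.6, 33.9, 23.2 and 29.2 FPKM in the FBS libraries (log2 difference -3.00, SE 0.20, adjusted p = 7.45e-08). Spry4, a feedback inhibitor of the pathway, averaged 3.74 ± 0.491 against 18.3 ± 3.29 FPKM (log2 difference -2.01, SE 0.20, adjusted p = 1.96e-06). The phosphatases Dusp4 and Dusp6 averaged 6.38 and 26.6 FPKM in the knockout, 16.9 and 44.3 in FBS, and 4.44 and 15.6 in wild type in 2i. Etv4 was below both wild-type groups, since wild type in 2i held 13.1 ± 4 FPKM.

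Spry2, a feedback inhibitor of the same family as Spry4, rose: it was 141, 138, 133 and 130.0 FPKM in the knockout libraries and 61, 68, 66.1 and 67.7 FPKM in the FBS libraries (log2 difference 1.03, SE 0.046, adjusted p = 2.78e-09), and 79.9 ± 3.25 in wild type in 2i. The survival gene Mcl1 was the other member that rose (log2 difference 0.21, SE 0.060, adjusted p = 0.00841). Etv5 did not pass (0.14). The immediate early genes Fos and Fosb did not pass either, with overlapping groups, while Egr1 fell from 60.4 ± 8.36 to 39.1 ± 6.95 FPKM.

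Genes of the LIF receptor and STAT3 pathway went both ways: 6 of 21 rose and 10 fell, with a median of -0.28; with the fibroblast level in the model 2 rose and 1 fell. The receptor Lifr fell (log2 difference -0.68, SE 0.12, adjusted p = 0.000266), its partner Il6st did not pass (0.11), and Stat3 fell from 20.5 ± 1.09 to 14.3 ± 0.678 FPKM. Of the STAT3 targets, the feedback inhibitors Socs3 and Socs2 fell: Socs3 averaged 22.5 ± 2.48 against 41.3 ± 4.18 FPKM, and Socs2 had a log2 difference of -1.23. The kinase gene Pim1 rose (log2 difference 0.71, SE 0.055, adjusted p = 2.37e-07), and Icam1 fell from 24.1 ± 1.12 to 14.5 ± 1.11 FPKM, with wild type in 2i at 45.2 ± 5.97. Osmr, the oncostatin M receptor, rose as the fibroblast markers did, at 2.91 ± 0.936 against 0.704 ± 0.271 FPKM. With their level in the model Socs3 and Osmr reversed (0.19 and -0.63) and were not called.

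Of 25 Nodal and BMP pathway genes, 7 rose and 9 fell, with a median of 0.037; with the fibroblast level in the model 1 rose and 3 fell. The ligands moved apart: Nodal rose (log2 difference 0.49, SE 0.066, adjusted p = 2.58e-05), Bmp7 rose from 2.88 ± 0.631 to 7.33 ± 1.03 FPKM, and Bmp4 was 3.55, 2.81, 3.86 and 2.9 FPKM in the knockout libraries and 12.1, 14.8, 8.4 and 14.3 FPKM in the FBS libraries (log2 difference -1.63, SE 0.16, adjusted p = 1.54e-06). Lefty1, a Nodal antagonist, was 21.1, 24, 23.3 and 19.2 FPKM in the knockout libraries and 98.7, 54.3, 111 and 111 FPKM in the FBS libraries (adjusted p = 3.11e-06). Its level in wild type in 2i was 1.95 ± 0.594 FPKM, below both groups. Smad7, an inhibitory SMAD, was 10.5, 10.5, 9.43 and 9.53 FPKM in the knockout libraries and 23, 23.2, 21.9 and 19.5 FPKM in the FBS libraries (log2 difference -1.06, SE 0.074, adjusted p = 1.05e-07), and 26.4 ± 2.57 in wild type in 2i, so that the knockout was the lowest of the 3 groups. Id3 rose (1.21), Id2 fell (-0.91) and Id1 did not pass (0.086). Lefty2 averaged 45 ± 12.8 against 30.3 ± 11.3 FPKM and did not pass (adjusted p = 0.132); without FBS replicate 4 it was called (0.80, adjusted p = 0.0491).

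Among 11 retinoic acid response genes, 5 rose and 2 fell (median 0.19); with the fibroblast level in the model 2 rose and none fell. Aldh1a2, which makes retinoic acid, averaged 5.1 ± 0.435 against 1.49 ± 0.229 FPKM (log2 difference 1.29, SE 0.100, adjusted p = 2.29e-07), and 3.67 ± 0.628 in wild type in 2i. The groups did not overlap. Dhrs3 rose from 0.839 ± 0.149 to 3.06 ± 0.66 FPKM. The binding protein gene Crabp2 fell at adjusted p = 0.0437, with overlapping groups, and was not called with the fibroblast level in the model.

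Cytoskeletal genes that respond to serum formed a group that was lower in the knockout. Of 40 actin and serum response genes, 26 fell and 4 rose, with a median of -0.40; with the fibroblast level in the model 19 fell and 2 rose. Tagln (SM22; chr9:45737711-45744141), an actin-binding protein of smooth muscle, was 6.81, 8.13, 8.25 and 10.4 FPKM in the knockout libraries and 48.8, 28.5, 30.6 and 30.8 FPKM in the FBS libraries (log2 difference -1.90, SE 0.18, adjusted p = 1.05e-06). Gamma-actin (Actg1) was 478, 449, 482 and 470.0 FPKM in the knockout libraries and 956, 865, 892 and 976 FPKM in the FBS libraries (log2 difference -0.97, SE 0.11, adjusted p = 6.84e-06). S100a6 averaged 30 ± 7.69 against 152 ± 25 FPKM, and S100a4, a related calcium-binding protein, 2.11 ± 0.601 against 47.6 ± 9.66 FPKM. The groups did not overlap in any of these. Skeletal actin (Acta1) averaged 0.212 ± 0.0397 against 3.16 ± 1.35 FPKM, and the tropomyosins Tpm1 and Tpm2 fell (-0.94 and -1.07). Beta-actin (Actb) did not pass (log2 difference 0.19, SE 0.082, adjusted p = 0.0595); it was called at 0.22 without FBS replicate 1 and at 0.24 without FBS replicate 4 (adjusted p = 0.0459 and 0.0252).

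The 4 members that rose were Cnn3, Thbs1 and the matricellular genes Ccn1 and Ccn2. Ccn2 (CTGF) was 192, 196, 187 and 201 FPKM in the knockout libraries and 81.7, 93.1, 92.8 and 80 FPKM in the FBS libraries (log2 difference 1.15, SE 0.080, adjusted p = 9.82e-08). Calponin 3 (Cnn3) averaged 336 ± 5.98 against 159 ± 10 FPKM. No library of one group reached the other, and wild type in 2i held 162 and 392 FPKM of these genes. Thrombospondin 1 (Thbs1) was 46.1, 51.1, 57.4 and 74.6 FPKM in the knockout and 31.8, 28.3, 28 and 24.3 in FBS. With the level of the fibroblast markers in the model, which did not overlap between the groups, its difference was -0.72 (adjusted p = 0.0195). Fibroblasts express Thbs1 as well, and their part in its difference was not tested.

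Of the 33 tested members with a RefSeq promoter, 7 (21.2%) held on either strand the CArG box, the site bound by serum response factor, against 1.47% of all 32851 promoters and 1.41% of tested genes with one. The 7 were Acta1, Actg1, Cnn2, Fhl2, Myl9, Srf and Vcl, of which all but Vcl (0.096, adjusted p = 0.271) fell. Of all 40 tested members of the list 26 fell. Members were chosen as actin and serum response genes, so the share with a box may follow from that choice. A part of serum response factor was not tested. Acta1 (chr8:123894776-123895025, minus strand), Actg1 (chr11:120348496-120348745, minus strand) and Myl9 (chr2:156775214-156775463, plus strand) are shown as the 3 with the largest falls, with the box in capitals and coordinates on GRCm38.p6.
Acta1: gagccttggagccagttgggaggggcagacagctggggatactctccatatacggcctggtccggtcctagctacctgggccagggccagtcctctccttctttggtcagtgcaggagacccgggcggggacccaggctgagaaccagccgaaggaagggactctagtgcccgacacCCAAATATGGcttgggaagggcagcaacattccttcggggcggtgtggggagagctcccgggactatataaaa
Actg1: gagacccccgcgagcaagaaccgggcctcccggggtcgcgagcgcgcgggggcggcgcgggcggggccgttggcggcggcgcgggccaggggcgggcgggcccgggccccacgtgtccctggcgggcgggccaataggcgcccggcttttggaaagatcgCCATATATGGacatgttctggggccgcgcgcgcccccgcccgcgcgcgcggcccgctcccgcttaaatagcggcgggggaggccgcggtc
Myl9: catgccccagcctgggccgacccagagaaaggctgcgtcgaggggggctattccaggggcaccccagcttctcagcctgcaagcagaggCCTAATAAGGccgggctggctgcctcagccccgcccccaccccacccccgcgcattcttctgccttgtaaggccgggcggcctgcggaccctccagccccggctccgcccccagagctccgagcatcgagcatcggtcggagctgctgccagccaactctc
The box ends 64, 81 and 152 bases before the start in these 3.

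Glycolysis genes were mostly lower in the knockout. Of 22 tested, 16 fell and 4 rose, with a median of -0.55; with the fibroblast level in the model 5 fell and none rose. Ldha (chr7:54101174-54110997), which makes lactate, averaged 181 ± 12.9 against 553 ± 37.9 FPKM (log2 difference -1.61, SE 0.094, adjusted p = 2.43e-08). The glucose transporter Slc2a1 averaged 102 ± 9.4 against 284 ± 19 FPKM and the lactate exporter Slc16a3 13.5 ± 1.4 against 56.4 ± 7.88 FPKM. Pdk1, a pyruvate dehydrogenase kinase, averaged 11.2 ± 1.77 against 51.7 ± 7.29 FPKM. None of these groups overlapped. The 4 that rose were Slc2a3, Pfkp, Pfkm and Ldhb, the last from 104 ± 16.2 to 208 ± 21.5 FPKM.

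Subunits of the respiratory chain changed little: 11 of 31 rose and 5 fell, with a median of 0.055; with the fibroblast level in the model 1 rose and none fell. Cox5a rose most (log2 difference 0.68, SE 0.051, adjusted p = 1.72e-07) and Cox4i1 fell (log2 difference -0.36, SE 0.044, adjusted p = 1.28e-05). In wild type in 2i these were 526 ± 19 and 488 ± 12.8 FPKM. Cycs (cytochrome c) was called narrowly (log2 difference -0.22, SE 0.091, adjusted p = 0.0486). With the fibroblast level in the model it was 0.018 and not called (adjusted p = 0.978).

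Sterol and fatty acid synthesis was lower in the knockout. Of 31 tested, 23 fell and 4 rose, with a median of -0.48; with the fibroblast level in the model 2 fell and 1 rose. Lss (chr10:75994372-76016679), which closes the sterol ring, was 11.2, 12.8, 10.9 and 10.5 FPKM in the knockout libraries and 27.3, 24.6, 26.5 and 28 FPKM in the FBS libraries (log2 difference -1.16, SE 0.11, adjusted p = 1.68e-06). Idi1, an isomerase of the same pathway, averaged 19.9 ± 1.31 against 41.6 ± 1.93 FPKM. The groups were separate for both, and wild type in 2i held 13.5 (Lss) and 20.1 (Idi1) FPKM. The 4 that rose were Elovl6 (log2 difference 0.85, SE 0.046, adjusted p = 1.23e-08), Tm7sf2, Scd2 and Ebp. Ebp lies in the X stretch, where FBS replicate 4 held 19.9 FPKM and the others 7.96 to 8.19; its log2 difference was 0.70, and 1.00 without that library. Hmgcs1 was listed at 0 in every library and was not tested. The sterol regulatory element TCACNCCAC, searched on both strands, was in none of the 21 members with a RefSeq promoter and in 1.05% of all promoters.

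Genes of the amino acid response and serine synthesis were higher in the knockout. Of 29 tested, 19 rose and 3 fell, with a median of 0.37; with the fibroblast level in the model 4 rose and 2 fell. Asns (chr6:7625171-7643182), which makes asparagine, was 588, 589.8, 588 and 605 FPKM in the knockout libraries and 161, 130.3, 173 and 135 FPKM in the FBS libraries (log2 difference 1.99, SE 0.087, adjusted p = 2.65e-09). The stress regulator Nupr1 averaged 138 ± 12.1 against 31.4 ± 7.2 FPKM and the transcription factor Atf5 38.5 ± 4.07 against 9.71 ± 1.26 FPKM. The cationic amino acid transporter Slc7a1 rose from 9.11 ± 0.325 to 22.3 ± 1.11 FPKM, and Cth, which makes cysteine, from 39.6 ± 5.41 to 96.6 ± 15.8. The groups did not overlap in any of these. Atf4 itself rose little (log2 difference 0.17, SE 0.064, adjusted p = 0.0301), and Trib3 and Ddit3 did not pass. Ddit4, Slc7a3 and Chac1 fell. Chac1 (log2 difference -0.49, SE 0.19, adjusted p = 0.036) was 0.085 and not called with the fibroblast level in the model (adjusted p = 0.952).

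In threonine and glycine catabolism 2 of 10 rose and 6 fell (median -0.35); with the fibroblast level in the model 1 rose and 1 fell. Tdh, the threonine dehydrogenase of mouse stem cells, did not pass (log2 difference 0.20, SE 0.099, adjusted p = 0.0922); without FBS replicate 2 it was called (0.28, adjusted p = 0.017). The glycine decarboxylase Gldc fell from 96.9 ± 2.85 to 38.9 ± 4.08 FPKM. Of 27 genes of metal handling and antioxidant defence, 6 rose and 15 fell (median -0.20); with the fibroblast level in the model 2 rose and 6 fell. The iron exporter Slc40a1 was 0.6, 0.894, 0.585 and 0.47 FPKM in the knockout libraries and 19, 31.9, 15.5 and 20.6 FPKM in the FBS libraries (log2 difference -3.76, SE 0.16, adjusted p = 2.44e-09), and 0.146 ± 0.0484 in wild type in 2i. Srxn1, Gclm and Txnrd1, of antioxidant defence, fell (-1.12, -0.80 and -0.65), while Gpx4 and Sod2 rose (0.50 and 0.63). Metallothioneins Mt1 and Mt2 rose (0.40 and 0.53), whereas Mt3, outside the list, fell from 11.3 ± 1.35 to 0.541 ± 0.245 FPKM.

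Lysosome and autophagy genes rose in 13 and fell in 6 of 29 (median 0.12); with the fibroblast level in the model 2 rose and 1 fell. The enzyme gene Glb1 averaged 49.4 ± 2.08 against 25.2 ± 1.97 FPKM, and the membrane protein Lamp2 44 ± 3.2 against 19.2 ± 3.94 FPKM. Tfeb, a regulator of lysosomal genes, was 5.27, 5.96, 5.04 and 6.02 FPKM in the knockout libraries and 12.7, 15.4, 13 and 14.5 FPKM in the FBS libraries (log2 difference -1.18, SE 0.083, adjusted p = 1.08e-07); it was 14.8 ± 1.52 in wild type in 2i, so the knockout was the lowest group. Tfe3, its relative in the X stretch, was 29.3, 28.1, 26.5 and 29.5 FPKM in the knockout libraries and 46.4, 49.4, 42.8 and 89.1 FPKM in the FBS libraries (log2 difference -0.92, SE 0.25, adjusted p = 0.00588; -0.68 without FBS replicate 4, adjusted p = 0.0164).

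Genes of the Myc family and growth were mostly lower: 14 of 24 fell and 4 rose, with a median of -0.27; with the fibroblast level in the model 1 rose and 2 fell. Mycn was 26.4, 23.9, 25.6 and 27.8 FPKM in the knockout libraries and 89, 105, 100.4 and 96.6 FPKM in the FBS libraries (log2 difference -1.87, SE 0.064, adjusted p = 4.58e-10), and Myc averaged 7.62 ± 0.604 against 14.4 ± 2.75 FPKM. The polyamine enzyme Srm and the helicase Ddx21 fell (-0.83 and -0.65). Mxi1, a Myc antagonist, rose (log2 difference 0.22, SE 0.071, adjusted p = 0.0139). It was -0.004 and not called (adjusted p = 0.977) when the highest entry per gene was used in place of the sum. Of 36 cell cycle genes, 7 rose and 14 fell (median -0.081); with the fibroblast level in the model 1 rose and 3 fell. Cyclin E1 (Ccne1) fell from 147 ± 22.2 to 62.4 ± 3.92 FPKM, and Mki67 fell (-0.52), while cyclin A2 (Ccna2) and Aurka did not pass.

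The cyclin-dependent kinase inhibitor Cdkn1a (p21), also a p53 target, was 116, 141, 111 and 129.8 FPKM in the knockout libraries and 47.1, 35.2, 41.2 and 30.6 FPKM in the FBS libraries (log2 difference 1.68, SE 0.11, adjusted p = 8.09e-08). The groups were separate, and wild type in 2i was at 135 ± 8.43 FPKM. Of 22 p53 pathway genes, 12 rose and 4 fell, with a median of 0.28; with the fibroblast level in the model 2 rose and none fell. Sesn1, Trp53inp1, Phlda3 and Ei24 had log2 differences of 0.74, 0.67, 0.69 and 0.64, whereas Perp fell (-1.05). Trp53 itself fell (log2 difference -0.28, SE 0.098, adjusted p = 0.0223) with overlapping groups, and was not called with the fibroblast level in the model. The death receptor Fas rose (log2 difference 0.84, SE 0.14, adjusted p = 0.000154) but was -0.15 and not called in that model (adjusted p = 0.833).

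Polycomb and heterochromatin genes split, 11 of 34 rising and 14 falling, with a median of -0.094; with the fibroblast level in the model 3 rose and 4 fell. Bmi1, of Polycomb complex 1, was 5.28, 5.46, 5.88 and 5.22 FPKM in the knockout libraries and 1.61, 1.52, 1.59 and 1.88 FPKM in the FBS libraries (log2 difference 1.29, SE 0.076, adjusted p = 2.50e-08). Phf19, an accessory factor of complex 2, was 1.72, 1.93, 1.49 and 1.44 FPKM in the knockout libraries and 12.2, 17.8, 8.34 and 15 FPKM in the FBS libraries (log2 difference -2.39, SE 0.17, adjusted p = 1.02e-07), while its relative Mtf2 rose from 57.9 ± 3.99 to 104 ± 5.28 FPKM. Neither Ezh2 nor Ezh1 passed. The H3K9 methyltransferases Ehmt1 and Ehmt2 fell (-0.79 and -0.71). Suv39h1, in the X stretch, did not pass with or without FBS replicate 4 (adjusted p = 0.515 and 0.949).

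Interstitial matrix genes of fibroblasts were among the largest rises. Col3a1 (chr1:45368383-45406551), a fibrillar collagen, was 72.3, 81.1, 97.5 and 125 FPKM in the knockout libraries and 6.25, 4.58, 5.65 and 4.36 FPKM in the FBS libraries (log2 difference 3.92, SE 0.19, adjusted p = 4.97e-09). Decorin (Dcn) averaged 19.5 ± 5.24 against 0.523 ± 0.14 FPKM and lysyl oxidase (Lox) 56.9 ± 15 against 3.49 ± 0.964 FPKM. In all 3 the groups were separate, and wild type in 2i held 51.8, 9.84 and 34.5 FPKM. These 3 belong to the fibroblast marker list, whose summed level was 437 FPKM or more in the knockout and 141 or less in FBS. Their part in the result was not tested. Thy1, a marker of the same list, was higher in FBS (log2 difference -0.69, SE 0.12, adjusted p = 0.000271).

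Basement membrane genes went both ways: 7 of 17 rose and 8 fell (median -0.17); with the fibroblast level in the model 2 rose and 4 fell. Collagen IV (Col4a1) fell (-0.91). Among the laminin subunits Lama1, Lama5 and Lamb1 fell (-1.48, -0.90 and -0.87), and Lamb2 and Lamc1 rose (0.79 and 0.32). Sparc, which binds collagen, was 329.9, 370.1, 401 and 464 FPKM in the knockout libraries and 168, 126, 154 and 149 FPKM in the FBS libraries (log2 difference 1.38, SE 0.11, adjusted p = 2.88e-07), and nidogen 1 (Nid1) averaged 42.5 ± 3.21 against 18.4 ± 2.6 FPKM, with 104 ± 12 in wild type in 2i. Fibronectin (Fn1) rose (0.75). Sparc was not called with the fibroblast level in the model, at adjusted p = 0.148.

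Many lineage genes of the germ layers did not reach the test. Of 17 endoderm genes 7 were tested, with 3 rising and 2 falling (median 0.059); with the fibroblast level in the model 1 rose and 3 fell. Foxa1 averaged 1.5 ± 0.208 against 0.199 ± 0.0416 FPKM and Amn, a visceral endoderm receptor subunit, 0.566 ± 0.0786 against 2.98 ± 0.22 FPKM. Of 15 streak and mesoderm genes 5 were tested: T and Gsc rose, Eomes, Foxh1 and Hand1 fell, and the median was -0.49; with the fibroblast level in the model 1 rose and 1 fell. Gsc (goosecoid) averaged 3.93 ± 0.736 against 0.642 ± 0.164 FPKM and 8.61 ± 1.24 in wild type in 2i. Of 15 neural genes 9 were tested, with 2 rising and 3 falling (median -0.20); with the fibroblast level in the model none rose and 1 fell. Neurog1, a proneural factor, was 5.91, 5.86, 9.05 and 8.55 FPKM in the knockout libraries and 0.996, 0.949, 1.08 and 3.02 FPKM in the FBS libraries (log2 difference 1.78, SE 0.22, adjusted p = 1.15e-05), and 0.477 ± 0.188 in wild type in 2i.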

How the data were processed

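Per the labels' protocols, Trizol was used for RNA and a TruSeq kit for the libraries. The authors deposited a single table with an FPKM value, bounds and a status for each RefSeq transcript and library, per the file headers. The submitters' processing notes name CASAVA 1.8.2, Cufflinks (version not given) and the build mm9. Which aligner was used is not given in the sources used here. FPKM keep no read depth, so no count test was used. For entries of 5 to 20 FPKM the upper bound lay a median of 6.51% to 8.02% above the value per library.

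Symbols were looked up in RefSeq (GRCm38.p6), then in GENCODE vM21; this named 98.8% of 30761 entries; 362 had none. Entries of a symbol were summed to 23138 genes. The 7 genes touched by 23 entries with a failed estimate (Acp1, Alkal2, Hnrnpd, Nolc1, Ralgds, Ss18 and Tpm3) were left out. No mm9 genome was used here, and how reads of near-identical genes were divided was not given.

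The 12219 genes that reached 1 FPKM in 4 or more of 12 libraries were tested on log2(FPKM + 1) with limma 3.58.1 (R 4.3.3), 1 mean per group over all 12 libraries and eBayes with a trend. A gene was called at an adjusted p (Benjamini-Hochberg, two-sided) below 0.05. The fit was tested on simulated data. Single values were tested by exact permutation. Promoters are the 250 bases before each start in RefSeq GRCm38.p6, without chromosome 18. Python 3.11.15, numpy 2.4.6, pandas 2.3.3, scipy 1.17.1 and matplotlib 3.10.9 were used.

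Groups came from the labels. The comparison, the 31 gene lists and the 7 marker lists were chosen with earlier results of these data known. The rule for named genes took the 15 largest non-overlapping differences in each direction where the higher group averaged 2 FPKM or more, 1 per family and no unnamed models (Gm, Rik, LOC, BC or AK symbols), up to 3 called members per list and direction, and the most abundant member not called. A few genes are not reported here. Other genes named in the text were chosen after their values were seen. Alternatives were the pseudocount, filter, scaling, replicate block, weights, covariate, chromosome 6 and leaving out each library.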

Additional observations from a re-analysis of the deposited data

Results flagged for a closer look

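In 419 groups of 4 libraries (the knockout and FBS values of the named genes), 22 held a library whose distance from its nearest neighbour exceeded Dixon's critical share of the group's range. Chance gives about 1 in 20 such groups. No explanation was tested.

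In FBS replicate 4, Ebp was 19.9 FPKM (the other libraries of its group 7.96 to 8.19), Eras 62.1 (27.3 to 32.4) and Tfe3 89.1 (42.8 to 49.4). All 3 lie in the stretch of chromosome X described above. Neurog1 was 3.02 FPKM in the same library (0.949 to 1.08).

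In FBS replicate 3, Bcl3 was 10.3 FPKM (13.6 to 13.8) and Gdf3 28.3 (38.6 to 39.5). The same library was high for Fgf4 at 71.5 FPKM (53.4 to 55.4), Mcl1 at 160.0 (133 to 138) and Npc2 at 48.5 (40.5 to 40.9). Tagln was 48.8 FPKM in FBS replicate 1 (28.5 to 30.8), and Grhl2 was 13.0 in FBS replicate 2 (8.69 to 9.41).

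In knockout replicate 4, AU015836 was 5.92 FPKM (6.37 to 6.46), Ct55 11.8 FPKM (16.7 to 17.2), Ccne1 56.5 (63.6 to 65), Ndufb5 79.4 (82.7 to 83.4) and Asns 605 (588 to 589.8). In knockout replicate 2, Bmp7 was 8.86 FPKM (6.66 to 6.98), Krt19 1.02 (0.594 to 0.666), Srxn1 9.68 (8 to 8.19) and Grhl2 1.93 (2.19 to 2.21). Knockout replicate 1 held 9.9 FPKM of Phlda2 (30.6 to 33.2) and 6.1 of Zrsr1 (11 to 11.7).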

How the results depend on the processing

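Against 8150 called genes, the count was 10046 without a filter, 5899 with a filter of 5 FPKM, 6739 at an adjusted p under 0.01, and 7643 to 8124 when single libraries were left out. Quantile, median-ratio and TPM scaling gave 8117, 8193 and 8196. With the fibroblast level as a covariate it was 1634 (675 higher, 959 lower), with a larger standard error. The count with a log2 difference of at least 1 was 1119, and 1781 and 1873 with pseudocounts of 0.1 and 0.01. Under the covariate 10 named genes changed sign: Chac1 (0.085), Cycs (0.018), Fas (-0.15), Grb10 (-0.019), Ncam1 (-0.26), Osmr (-0.63), Socs3 (0.19), Thbs1 (-0.72), Trf (0.34) and Zrsr1 (-0.023). Of these only Thbs1 was called with its new sign (adjusted p = 0.0195). The others were not called there, so their values do not show a change of direction. Mxi1 was -0.004 with the highest entry per gene and was not called (adjusted p = 0.977). The cause was not tested.

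Of the 219 genes named by the rule, those described above that lost their call under the covariate, beside those, were Ascl2, Atf5, Bcl3, Bmp4, Bmp7, Ccne1, Cdkn1c, Cox4i1, Cox5a, Crabp2, Dazl, Ddit4, Dhrs3, Dnd1, Dppa4, Dppa5a, Dusp4, Ebp, Ehmt2, Eomes, Esx1, Foxh1, Gadd45a, Gadd45b, Gdf3, Grhl1, Grhl3, Hormad1, Id3, Idi1, Lama1, Lama5, Lamc1, Lamp2, Ldhb, Lef1, Lefty1, Lin28a, Lss, Manba, Mcl1, Mxi1, Myc, Neurog1, Npc2, Pcsk1n, Pdk1, Peg10, Perp, Pfkp, Phlda2, Pim2, Sesn1, Slc2a3, Smad7, Socs2, Sod2, Sox3, Sparc, Spry4, T, Tead4, Tfcp2, Tfe3, Tm7sf2, Trp53 and Zic2. Described genes outside the rule were not screened, so absence from this list does not show a kept call.

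With a replicate block 8208 genes were called, Lefty2 among them (log2 difference 0.58, adjusted p = 0.00414). Same-numbered knockout and FBS libraries had correlations of deviations of -0.024, 0.083, 0.032 and -0.027, and 1 knockout library correlated best with its own number. For the knockout and wild type in 2i they were 0.055, 0.257, 0.216 and 0.19, and for wild type in 2i and FBS 0.026, 0.121, 0.027 and 0.189. No pair of groups was above 0.1 at every number, so the number was not taken to pair libraries, although replicate 4 of both wild-type groups shares the X stretch. The mean log2 fibroblast level also rose with the number in both 2i groups, but not in FBS. From replicate 1 to 4 it went from 3.50 to 4.16 in the knockout and from 2.81 to 3.35 in wild type in 2i. A pairing by number is thus not excluded. Read depth is not given by FPKM, and precision is limited for genes near 1 FPKM.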

Other observations

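Replication-dependent histone genes, picked out after their values were seen, were higher in the knockout than in both wild-type groups. Of 42 tested on chromosome 13, 33 rose against FBS and none fell, with a median log2 difference of 0.66. Against wild type in 2i, 34 rose and none fell, with a median of 0.62. Over all tested genes, 66.7% were called against FBS and 45.5% against wild type in 2i, in either direction. Their summed level was 241, 239, 222 and 178 FPKM in the knockout libraries, 113, 113, 103 and 116 in FBS, and 124, 114, 117 and 105 in wild type in 2i, so the knockout did not overlap either group. These genes are near-identical copies that share reads, so single copies are uncertain.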
